A study of Mus musculus with 8 samples.

Results

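Hypoxia target genes outside glycolysis were examined in the transcriptome of primary murine cardiac fibroblasts. The set held 10 named genes, Bnip3, Bnip3l, Higd1a, Vegfa, Adm, Ndrg1, Ddit4, Kdm3a, Ankrd37 and Car9, taken by symbol from the 22274 genes of the deposited table. All 10 were found, and 9 passed the filter on low counts and were among the 13533 genes tested, the exception being Car9. The genes were taken by name, with no threshold on a measured value. The set and the lists set beside it were, however, chosen with earlier results of these data known.

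The cells were fibroblasts isolated from mouse heart, the collagen-producing cells of the cardiac interstitium. The study transduced them with a control adenovirus (4 libraries labelled GFP) or with an adenovirus carrying IRF7, an interferon regulatory factor (4 libraries labelled OEIRF7). All 8 cultures also received TGF-β, the cytokine that turns fibroblasts into myofibroblasts, at 5 ng/ml for 24 h. The study kept its mouse strains on a C57BL/6 J background, while the donors of these cultures, their sex and their age were not named in the sources used here. No group without TGF-β and none under low oxygen was among the libraries. The study's legend speaks of biological replicates but of fewer than the 4 libraries deposited per group, and nothing tied single libraries to separate cultures or animals, so that p-values measure only the spread between these samples.

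When oxygen falls, prolyl hydroxylases no longer mark the α subunits of the hypoxia-inducible factors (HIF) for destruction, and HIF then pairs with ARNT and binds short hypoxia response elements in its target genes. Best known among the targets are the glycolytic enzymes, but HIF also drives genes for removing mitochondria, for vessel growth, for pH control and for chromatin demethylation. Several of these genes also answer to other stress pathways, so that their transcripts do not report oxygen alone.

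The mouse Irf7 transcript itself was lower where the label says overexpression. Counts were 2861, 3680, 2272 and 3291 in the libraries labelled GFP and 385, 421, 380 and 404 in those labelled OEIRF7, or 118 ± 24 against 15.2 ± 0.822 CPM (counts relative to the TMM-scaled library size; mean ± SD, n = 4 each), with a log2 fold change of -2.96 (SE 0.12, adjusted p = 7.7e-11, edgeR quasi-likelihood test). The study's reagents name a human IRF7 construct, whereas these are counts of the mouse gene. Whether the labels were exchanged was not tested, and if they were, each direction given here would turn. Among other genes, Hk1 (hexokinase 1) was at 241 ± 14.1 CPM under the GFP label. Under the OEIRF7 label it was at 416 ± 42.8 CPM (log2 fold change 0.79). The study reports the opposite direction, with HK1 repressed by IRF7 overexpression in qPCR and western blotting. It picked HK1 from genes altered in its RNA-seq and bound by IRF7. From that RNA-seq it names HIF-1 signaling and glycolysis among the pathways influenced by IRF7. Its gene set enrichment is described as an inverse correlation of IRF7 overexpression with a dampened hypoxia response, wording whose direction is not clear. Most genes of the set were higher here under the OEIRF7 label. The study also reports an attenuated transition to myofibroblasts. Among genes it names as myofibroblast markers, Postn (-0.38), Col3a1 (-0.53) and Col1a1 (-0.16) were lower under the OEIRF7 label. Lox was higher (0.11), and Col1a2 was not called (-0.05). Tcf21, which the study describes as a label of quiescent cardiac fibroblasts, was also lower (-1.33), from 58.3 ± 6.13 to 23.1 ± 3.49 CPM. The study names further markers, Acta2 among them, that are not given here. The genes given were chosen after their values were seen. Each direction is therefore given between libraries as labelled. Total counts ran from 24454801 to 28658826 per library.

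Of the libraries labelled OEIRF7, replicate 3 stood apart. The χ2 per degree of freedom of its counts against the other libraries of that label was 6.21, 8.67 and 8.18, while it was 2.69 to 4.10 among those others. Of the libraries labelled GFP, replicate 2 stood apart by less, at 4.96, 5.91 and 5.34 against 3.27 to 3.64 among the others. The values of replicate 3 labelled OEIRF7 were the highest, so that counts of calls are also given without replicate 3 of both labels where they differed.

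Letters of the HIF core motif were present upstream of most of these genes. Promoter sequences of RefSeq (GRCm38.p6, 250 bases before to 50 after each annotated start) were matched for 8 of the 10 genes, Bnip3l and Ndrg1 being those without one. Both strands were searched for ACGTG and for GCGTG, the 2 forms of the core, and the palindrome CACGTG counts on both strands. ACGTG was held by 6 of the 8 genes (Bnip3, Ankrd37, Higd1a, Ddit4, Vegfa and Car9) and by 21.8% of the 27025 genes in the promoter table, a gene counting once where any of its promoters held the letters. GCGTG was held by 7 of the 8 genes (not by Car9) and by 35.2% of all genes in that table. Either form was held by all 8 genes, against 46.7% of all genes with a promoter. A match of 5 letters is a description of the sequence and not a binding site. The genes had been listed as hypoxia targets beforehand. The background was not matched to them for base composition or number of promoters, so that these shares are not a test.

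Shown are windows from 7 of these promoters, 5′ to 3′ on the strand of the gene, in which capitals mark the motif on either strand. Bnip3 is shown for its cluster of matches, Adm because it moved against the others, and the remaining genes so that the 2 forms can be compared.
Bnip3, chr7:138909507-138909653, minus strand: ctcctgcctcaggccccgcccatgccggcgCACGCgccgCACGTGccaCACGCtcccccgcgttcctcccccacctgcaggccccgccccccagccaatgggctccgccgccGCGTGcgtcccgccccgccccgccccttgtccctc
Higd1a, chr9:121857828-121857896, minus strand: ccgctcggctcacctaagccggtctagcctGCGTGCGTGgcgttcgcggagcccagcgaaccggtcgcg
Adm, chr7:110627537-110627637, plus strand: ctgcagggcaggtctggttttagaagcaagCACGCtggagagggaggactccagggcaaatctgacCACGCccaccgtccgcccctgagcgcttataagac
Ddit4, chr10:59951923-59951987, minus strand: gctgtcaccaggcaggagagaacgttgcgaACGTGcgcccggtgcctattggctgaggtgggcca
Kdm3a, chr6:71632918-71632974, minus strand: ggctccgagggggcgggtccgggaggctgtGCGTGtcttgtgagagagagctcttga
Ankrd37, chr8:46000057-46000100, minus strand: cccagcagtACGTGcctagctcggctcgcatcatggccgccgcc
Car9, chr4:43506978-43507025, plus strand: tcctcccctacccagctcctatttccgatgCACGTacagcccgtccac

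The Bnip3 window held 5 matches, the first at base -117 and the last at -35 from the annotated start, and 2 of them formed the palindrome CACGTG. The Car9 match began at base -18, in a stretch that GENCODE M21 places within an exon of Car9 although RefSeq starts the gene after it. The windows of Bnip3, Kdm3a and Higd1a likewise touched an exon of their own gene in GENCODE, the Ankrd37 window lay in an intron of Ankrd37 and inside Lrp2bp on the other strand, and those of Adm and Ddit4 overlapped no exon. Adm and Kdm3a held GCGTG alone, and the ACGTG of Higd1a lay outside the window shown. The matches of Vegfa belonged to a start annotated inside the gene, in a stretch that touches its coding sequence in GENCODE. The other promoter of Vegfa held neither form.

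Most of the set was higher in the libraries labelled OEIRF7. Of the 9 tested genes, 8 rose and 1, Adm, fell at an adjusted p under 0.05, while of all tested genes 29% were called higher and 29.9% lower. The median log2 fold change was 0.63 over the 9 genes and 0.0015 over all tested genes. The groups did not overlap for any of the 9: every library labelled OEIRF7 was above every library labelled GFP for 8 genes (26.8% of all tested genes) and below for Adm (27%). At the thresholds of the study's methods (p under 0.05 before adjustment, with more than 1.5-fold or less than 0.66-fold), 5 of the genes were called higher (Bnip3, Vegfa, Ankrd37, Ndrg1 and Higd1a), where 9.47% of all genes were. None was called lower, where 9.56% of all genes were, Adm lying just outside at 0.662-fold. The summed level of the 10 genes was 775 to 805 CPM in the libraries labelled GFP and 1028 to 1193 CPM in those labelled OEIRF7. In bulk RNA, fewer cells of a type and less RNA per cell cannot be told apart.

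**Figure D1:**
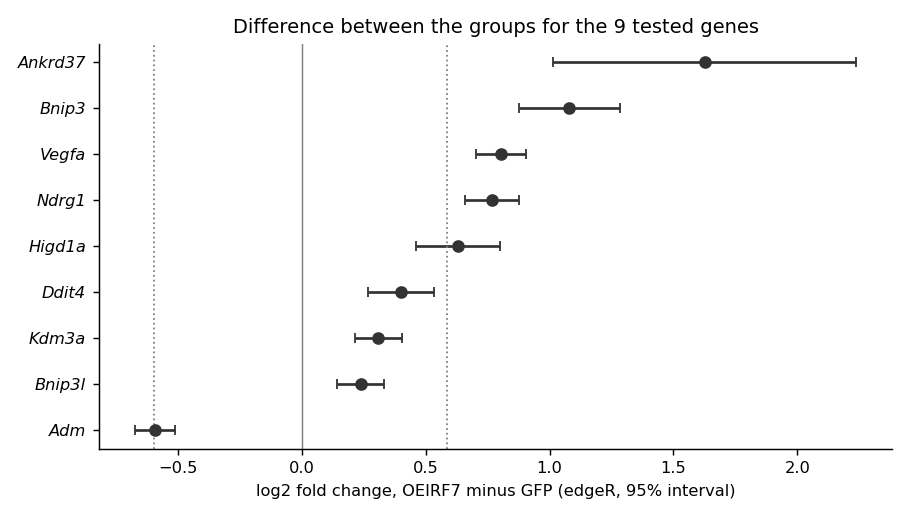
Log2 fold change of the 9 tested genes (points, edgeR, libraries labelled OEIRF7 minus libraries labelled GFP, 4 each) with 95% intervals (bars); the dotted lines stand at the thresholds of 1.5-fold and 0.66-fold. Only the interval of Adm lies below 0, and Ankrd37 has the widest interval, 2.02-fold to 4.72-fold.

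Among the genes of mitochondria, Bnip3 changed the most. Bnip3 and Bnip3l (NIX) are outer mitochondrial membrane proteins that bind LC3 family proteins and bring mitochondria to autophagosomes. Bnip3 (ENSMUSG00000078566, chr7:138890836-138909519, minus strand) was at 61.7, 64.7, 75.5 and 66.7 CPM in the libraries labelled GFP and at 132, 123, 178 and 135 CPM in those labelled OEIRF7. The group means were 67.2 ± 5.94 and 142 ± 24.4 CPM, a 2.11-fold difference (95% interval 1.83 to 2.43, adjusted p = 1.98e-07). Replicate 3 was the highest library under both labels, and without both libraries numbered 3 the log2 fold change was 1.01 in place of 1.08.

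Bnip3l (ENSMUSG00000022051, chr14:66985239-67008877, minus strand) rose by much less than its paralog. It stood at 119, 116, 116 and 121 CPM under the GFP label and at 137, 133, 153 and 134 CPM under the OEIRF7 label. The rise from 118 ± 2.45 to 139 ± 9.24 CPM was 1.18-fold (1.10 to 1.26, adjusted p = 0.000314). The libraries labelled GFP lay close together, so that a small change could be told from the spread.

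The difference between the paralogs was measured as a ratio of length-normalised levels (FPKM) within each library, a comparison chosen after the values were seen. Bnip3 over Bnip3l was 1.08, 1.16, 1.37 and 1.12 in the libraries labelled GFP and 1.99, 1.94, 2.35 and 2.07 in those labelled OEIRF7. The mean ratio went from 1.18 ± 0.129 to 2.09 ± 0.184 (exact two-sided permutation p = 0.0286, the smallest that 4 against 4 libraries allow, and 0.0286 after adjustment over the 2 ratios tested). These transcripts were thus at close levels under one label and clearly separate under the other. The adjustment does not allow for the choice of the ratios after the values were seen.

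Higd1a (ENSMUSG00000038412, chr9:121848563-121858362, minus strand) encodes a small inner-membrane protein that associates with the respiratory chain. Its libraries were at 27.7, 33.9, 28.0 and 26.7 CPM under the GFP label and at 42.7, 42.3, 51.7 and 43.2 CPM under the OEIRF7 label. The mean rose from 29.1 ± 3.25 to 45.0 ± 4.51 CPM, or 1.55-fold (1.37 to 1.74, adjusted p = 8.19e-06). Higd1a was the called gene nearest to the 1.5-fold threshold, and fell under it, at a log2 fold change of 0.54, without both libraries numbered 3.

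The secreted factors Vegfa and Adm moved in opposite directions. Vegfa encodes the main growth factor of endothelial cells and Adm the vasodilator peptide adrenomedullin, and both are secreted by fibroblasts. Vegfa (ENSMUSG00000023951, chr17:46016993-46032369, minus strand) was at 246, 254, 245 and 238 CPM in the libraries labelled GFP and at 421, 417, 477 and 401 CPM in those labelled OEIRF7. Its mean rose from 246 ± 6.36 to 429 ± 32.8 CPM, or 1.75-fold (1.63 to 1.87, adjusted p = 2.28e-09).

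Adm (ENSMUSG00000030790, chr7:110627661-110629820, plus strand) was at 194, 187, 198 and 181 CPM under the GFP label and at 124, 121, 130 and 127 CPM under the OEIRF7 label. Its mean fell from 190 ± 7.45 to 126 ± 3.98 CPM, or to 0.662-fold (0.626 to 0.701, adjusted p = 6.26e-09). The gap of more than 50 CPM between the lowest library of one label and the highest of the other was far larger than the spread within either.

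The ratio of Vegfa to Adm in FPKM, also chosen after the values were seen, was 0.643, 0.685, 0.639 and 0.665 in the libraries labelled GFP and 1.73, 1.76, 1.82 and 1.69 in those labelled OEIRF7. The means were 0.658 ± 0.0213 and 1.75 ± 0.0572 (exact two-sided permutation p = 0.0286). Since Vegfa rose and Adm fell without overlap, their ratio had to separate the labels. Its p-value was thus fixed in advance and adds no support. Adm was thus the more abundant transcript per length in all 4 libraries of one label, and Vegfa in all 4 of the other.

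Ndrg1 and Ddit4 are genes of stress signalling. Ndrg1 (ENSMUSG00000005125, chr15:66929318-66969640, minus strand) belongs to the N-myc downregulated family, is induced by hypoxia, iron loss and differentiation, and is phosphorylated by SGK1. It was at 37.6, 41.4, 36.2 and 42.5 CPM in the libraries labelled GFP and at 66.9, 67.0, 65.6 and 69.2 CPM in those labelled OEIRF7. The mean rose from 39.4 ± 3.0 to 67.2 ± 1.5 CPM, or 1.70-fold (1.58 to 1.84, adjusted p = 8.78e-09). Unlike most of the set, Ndrg1 was lowest in replicate 3 under both labels.

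Ddit4 (REDD1; ENSMUSG00000020108, chr10:59949669-59951834, minus strand) restrains the growth kinase complex mTORC1 through the TSC proteins and is induced by DNA damage, glucocorticoids and energy stress as well as by HIF. Its libraries were at 32.2, 35.9, 38.6 and 33.7 CPM under the GFP label and at 47.0, 41.9, 46.9 and 49.3 CPM under the OEIRF7 label. The mean rose from 35.1 ± 2.82 to 46.3 ± 3.12 CPM, or 1.32-fold (1.20 to 1.45, adjusted p = 6.8e-05). The nearest libraries of the 2 labels were 38.6 and 41.9 CPM.

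Kdm3a (ENSMUSG00000053470, chr6:71588972-71632990, minus strand) encodes a histone H3 lysine demethylase, an enzyme that itself uses oxygen. It was at 62.8, 62.0, 65.7 and 64.1 CPM in the libraries labelled GFP and at 75.0, 78.5, 85.4 and 76.3 CPM in those labelled OEIRF7. The mean rose from 63.7 ± 1.63 to 78.8 ± 4.62 CPM, or 1.24-fold (1.16 to 1.32, adjusted p = 2.93e-05). Its change was among the smaller ones of the set, between those of Bnip3l and Ddit4.

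Ankrd37 and Car9 were the least abundant of the set. Ankrd37 (ENSMUSG00000050914, chr8:45996902-46005707, minus strand) encodes a small ankyrin repeat protein. It had 44, 15, 39 and 25 reads under the GFP label and 96, 103, 131 and 59 reads under the OEIRF7 label. These corresponded to 1.19 ± 0.503 and 3.70 ± 1.13 CPM, a 3.09-fold difference (2.02 to 4.72, adjusted p = 0.000188) that was the largest point estimate of the set and the least precise. Ankrd37 shares 6405 bases with Lrp2bp on the opposite strand, whose counts were 36, 26, 29 and 21 against 32, 65, 72 and 64 (log2 fold change 1.02, SE 0.26, adjusted p = 0.0037). The strand setting of the authors' counting was not given in the sources used here, so that reads of these genes may not be separated.

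Car9 (ENSMUSG00000028463, chr4:43506966-43513729, plus strand) encodes carbonic anhydrase 9, a membrane enzyme that helps hypoxic cells export acid. It had 1, 7, 8 and 2 reads under the GFP label and 11, 13, 26 and 7 reads under the OEIRF7 label. The means were 0.180 ± 0.144 and 0.545 ± 0.326 CPM and the groups overlapped, with replicate 4 labelled OEIRF7 (0.284 CPM) below replicate 3 labelled GFP (0.324 CPM). The exact permutation test gave p = 0.0571, and a difference could not be told from the spread at this depth by that test. With the filter lowered to 1 count in total, edgeR gave a log2 fold change of 1.59 (SE 0.60, adjusted p = 0.036) and DESeq2 gave 1.62 (adjusted p = 0.036), whereas limma on log2(FPKM + 0.1) gave an adjusted p of 0.072. The call thus depended on the tool and the filter.

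**Figure D2:**
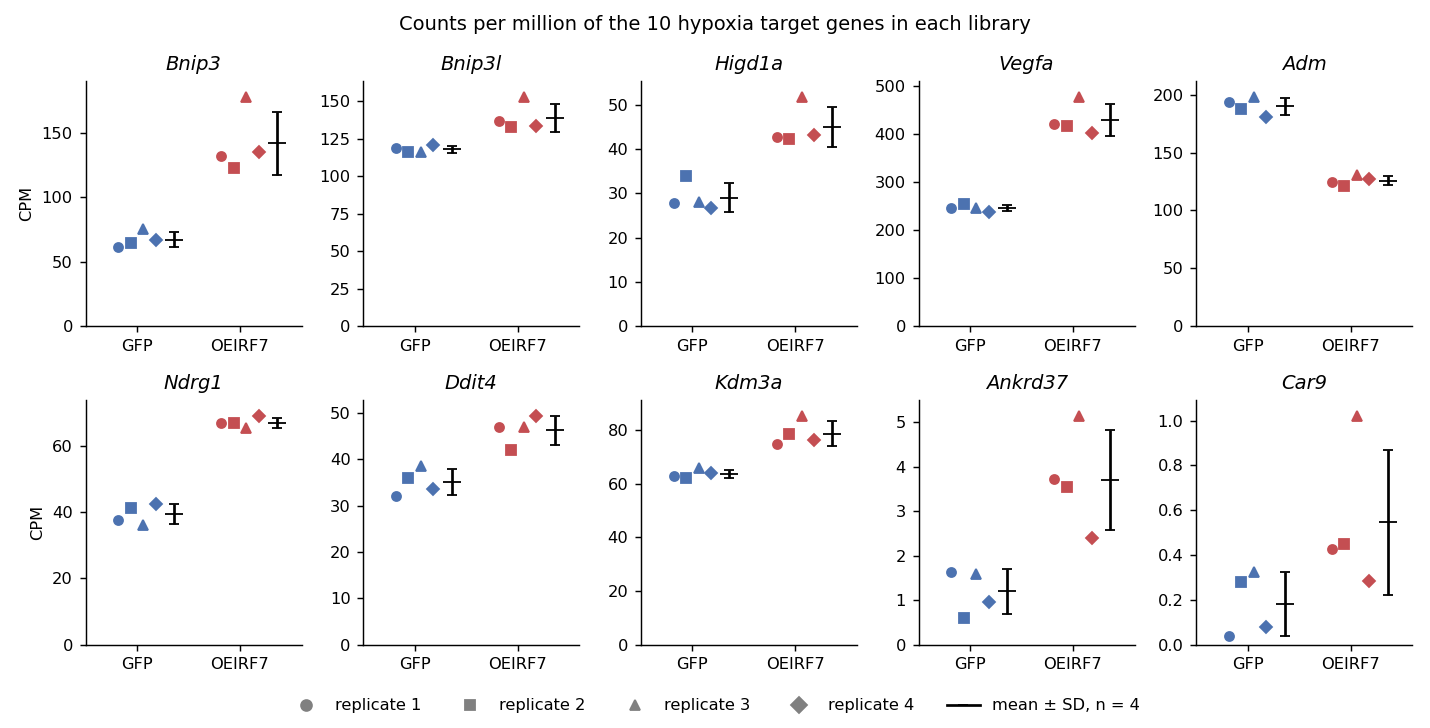
CPM of each of the 10 genes in each of the 8 libraries (symbols, by replicate number) with the mean and SD of each label (bars, n = 4); each vertical axis starts at 0. All genes but Adm and Car9 have every library labelled OEIRF7 above every library labelled GFP, Adm has the reverse, and Car9 overlaps.

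The exact permutation test over the 8 libraries gave p = 0.0286 for each of the 9 tested genes. Since the groups did not overlap for any of them, the test had to give this smallest value and adds no support. Of all tested genes, 26.8% lay fully above and 27% fully below in the same way. Antisense or pseudogene annotations that overlap Bnip3, Adm, Car9, Ndrg1 and Higd1a had no row in the deposited table, so that their reads could not be examined.

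The length-normalised levels spanned a wide range. Under the GFP label the order was Adm (135 ± 5.44 FPKM), Vegfa (88.9 ± 2.60), Bnip3 (42.7 ± 4.20), Bnip3l (36.1 ± 0.683), Higd1a (21.1 ± 3.53), Ddit4 (19.8 ± 1.62), Ndrg1 (13.5 ± 1.02), Kdm3a (13.2 ± 0.425), Ankrd37 (1.29 ± 0.545) and Car9 (0.107 ± 0.0618). Neighbours whose libraries overlapped in this order were Higd1a with Ddit4 and Ndrg1 with Kdm3a. Under the OEIRF7 label Vegfa came first (160 ± 7.78 FPKM), followed by Adm (91.2 ± 2.45) and Bnip3 (90.9 ± 13.7), whose libraries overlapped. The remaining order was kept, with Bnip3l at 43.3 ± 2.67, Higd1a at 35.8 ± 3.29, Ddit4 at 26.6 ± 1.75, Ndrg1 at 23.8 ± 0.993, Kdm3a at 17.4 ± 1.44, Ankrd37 at 4.04 ± 1.23 and Car9 at 0.270 ± 0.164 FPKM. There, Ddit4 and Ndrg1 overlapped. The only exchange of ranks was therefore that of Vegfa and Adm.

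**Figure D3:**
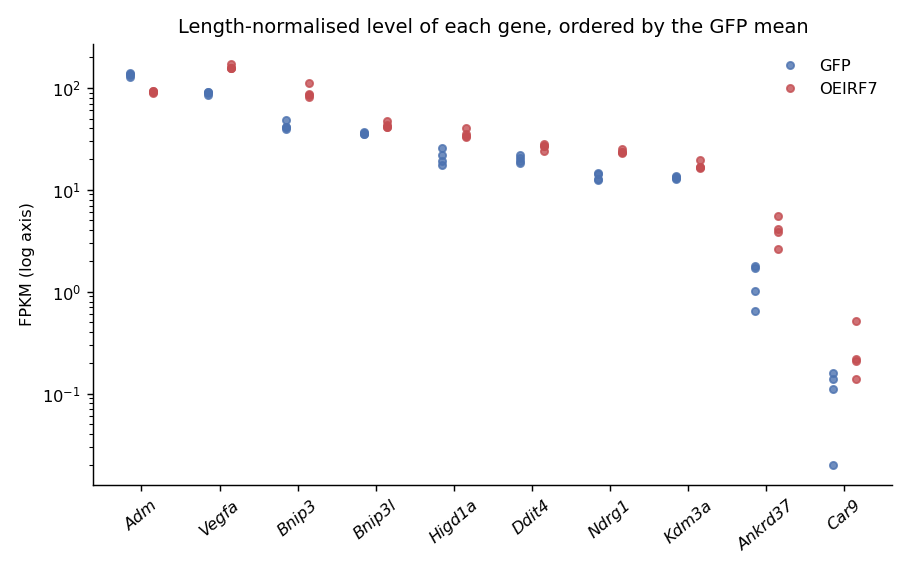
FPKM of each gene in each library (points, log axis), with the genes ordered by their mean under the GFP label. Adm and Vegfa exchange the first rank between the labels, and Car9 lies below 1 FPKM in every library.

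Replicate 3 was the highest library labelled OEIRF7 for 7 of the 9 tested genes, all but Ndrg1 and Ddit4. This count was made after the values were seen. The same library was highest for 28.6% of all tested genes and for 40.9% of the 3924 genes called higher. It was also highest for 17 of 20 glycolytic HIF targets. Among the libraries labelled GFP, replicate 3 was highest for 4 of the 9 genes (Bnip3, Adm, Ddit4 and Kdm3a), for 24.4% of all tested genes and for 16 of 20 glycolytic targets.

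Hif1a, which encodes an oxygen-regulated α subunit, was likewise highest in replicate 3 under both labels, at 482, 394, 558 and 437 CPM in the libraries labelled GFP and 632, 571, 860 and 564 CPM in those labelled OEIRF7. Epas1, which encodes the α subunit HIF-2α, was instead lowest in replicate 3 under both labels, at 193 and 69.3 CPM. The part of replicate 3 in the differences was examined by leaving out both libraries of that number. The same 8 genes then rose and Adm fell, with log2 fold changes of 1.01 for Bnip3, 0.18 for Bnip3l, 0.54 for Higd1a, 0.75 for Vegfa, -0.59 for Adm, 0.74 for Ndrg1, 0.44 for Ddit4, 0.28 for Kdm3a and 1.59 for Ankrd37. At the thresholds of the methods, 4 genes in place of 5 were then called higher.

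**Figure D4:**
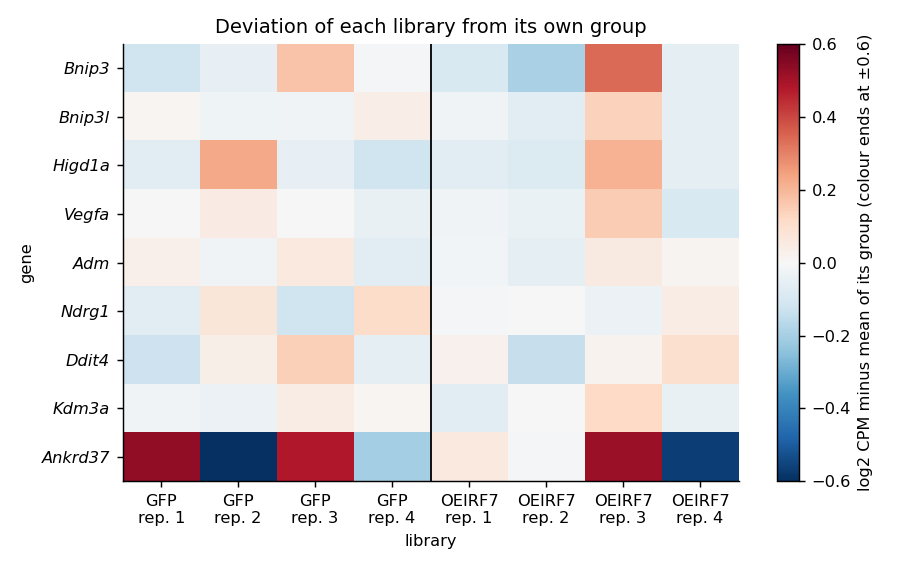
Deviation of each library from the mean of its own label in log2 CPM for the 9 tested genes (red above, blue below; colours end at ±0.6, which Ankrd37 exceeds in replicate 2 labelled GFP at -0.81). The column of replicate 3 labelled OEIRF7 is above its mean for all genes except Ndrg1, with Bnip3 at 0.34.

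The regulators of HIF moved in both directions. Of 10 listed HIF subunits and oxygen sensors 9 were tested, of which 3 rose, 4 fell and 2 were not called, with a median log2 fold change of -0.02. Of all tested genes, 29% rose and 29.9% fell, which is the background for this list and each list below. Without both libraries numbered 3, 3 in place of 4 fell. Hif1a rose by 0.49 on the log2 scale (SE 0.12, adjusted p = 0.0028). The related subunit Epas1 (HIF-2α) fell by 1.38 on the log2 scale (SE 0.070, adjusted p = 5.7e-10), from 224, 228, 193 and 204 CPM to 86.5, 88.4, 69.3 and 82.6 CPM. Egln3, a prolyl hydroxylase that is itself a HIF target, had a log2 fold change of 1.14, and the main oxygen sensor Egln1 one of 0.21. The partner subunit Arnt2 (-0.34) and the asparaginyl hydroxylase Hif1an (-0.17) fell. Hif1a and Epas1 thus changed in opposite directions.

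The glycolytic targets, kept apart from this set, gave a like count. Of 20 tested, 17 rose, 1 fell and 2 were not called, with a median of 0.55 against 0.63 for the 9 genes of the set. The lactate exporter Slc16a3 (1.51), hexokinase 2 (Hk2, 1.0) and phosphofructokinase (Pfkl, 0.83) had the largest rises in log2 fold change, and the glucose transporter Slc2a3 fell (-0.93).

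Of 30 other HIF targets all were tested, and 19 rose, 5 fell and 6 were not called (median 0.36). The lipoprotein lipase inhibitor Angptl4 went from 8.98 ± 0.264 to 72.4 ± 5.10 CPM, a log2 fold change of 3.01 (SE 0.061, adjusted p = 1.9e-13). Adenylate kinase 4 (Ak4, 1.42) and the clock-linked repressor Bhlhe40 (1.06) followed. The glycoprotein hormone Stc2 (-1.10) and the collagen-modifying enzymes Plod2 (-0.36) and Loxl2 (-0.22) fell. Adm was therefore not alone among HIF targets in being lower under the OEIRF7 label. In the deposited table's own annotation, 8 of the 10 genes of the set (all but Ankrd37 and Kdm3a) carried a GO term for the response to hypoxia, as did 1.85% of the tested genes. Vegfa alone carried the KEGG HIF-1 pathway, and Bnip3 and Bnip3l the KEGG mitophagy pathway.

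**Figure D5:**
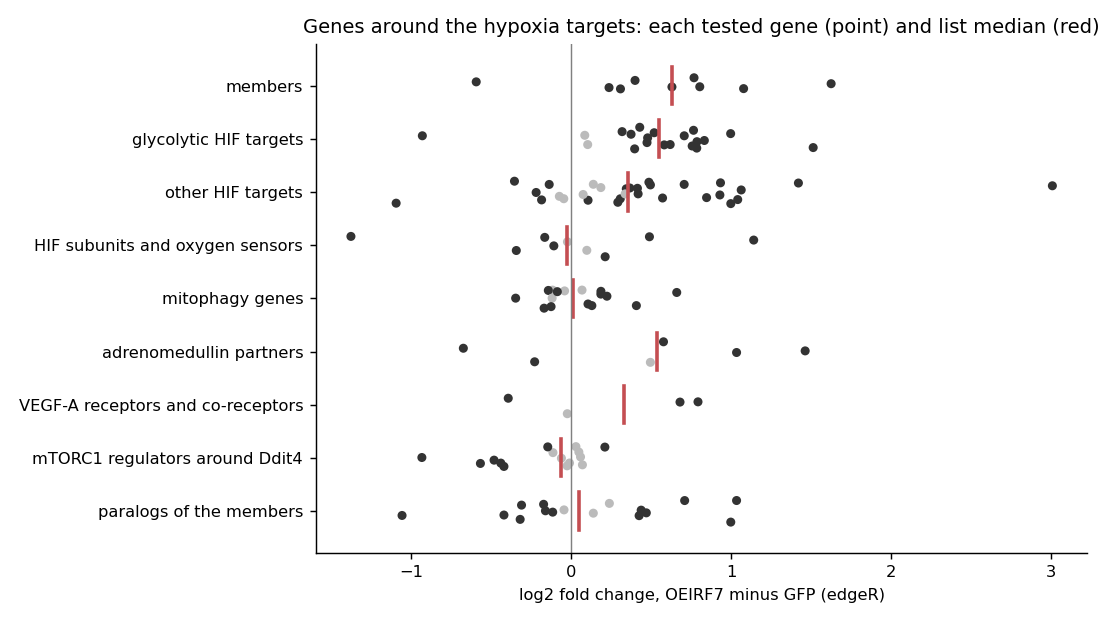
Log2 fold change (libraries labelled OEIRF7 minus GFP, edgeR) of each tested gene in the set and in 8 related lists (points; black for an adjusted p under 0.05, grey otherwise), with the median of each list in red. The set and the glycolytic targets have medians of 0.63 and 0.55, and the HIF subunits and the mitophagy genes have medians near 0 (-0.02 and 0.01).

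The other mitophagy genes moved both ways. Of 17 listed, 16 were tested, 7 rose, 5 fell and 4 were not called, with a median of 0.01. Of all tested genes, 29% rose and 29.9% fell, so that calls in both directions are not particular to this list. The adaptor Sqstm1 (p62), which links ubiquitin to autophagosomes, rose from 626 ± 16.6 to 990 ± 23.4 CPM (log2 fold change 0.66). The LC3 family gene Gabarapl2 (0.41) and the mitophagy receptor Bcl2l13 (0.22) also rose. The kinase Pink1 (-0.35), which marks damaged mitochondria, the receptor Fkbp8 (-0.14) and the adaptor Optn (-0.13) fell. Without both libraries numbered 3, 6 rose and 3 fell. The count of falls was 2 or 3 under some other settings too, so that the small decreases in this list are less certain than the rises.

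Around adrenomedullin, the ligand and parts of its reception changed in opposite directions. Adrenomedullin acts through Calcrl paired with a RAMP protein, is cleared by the decoy receptor Ackr3, is completed by the amidating enzyme Pam and is degraded by Mme. Of 8 listed partners 6 were tested, of which 3 rose, 2 fell and 1 was not called. Ackr3 rose from 7.20 ± 0.649 to 19.9 ± 1.30 CPM (log2 fold change 1.46), and Calcrl from 10.9 ± 1.16 to 16.2 ± 1.51 CPM (0.58). Adm2, which encodes the related ligand intermedin, rose from 2.08 ± 0.474 to 4.25 ± 0.731 CPM (1.03). Pam fell from 485 ± 9.0 to 414 ± 3.33 CPM (-0.23), and Mme also fell (-0.68). Ramp2 had a log2 fold change of 0.50 with an adjusted p of 0.054, and Ramp1 and Ramp3 did not pass the filter.

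Of the 4 receptors and co-receptors of VEGF-A, 2 rose, 1 fell and 1 was not called. The signalling receptor Kdr rose (0.79), from 6.50 ± 0.783 to 11.3 ± 1.39 CPM. The co-receptor Nrp2, far more abundant in these cells, rose from 209 ± 14.1 to 336 ± 16.2 CPM (0.68), whereas Nrp1 fell (-0.39). The decoy-like receptor Flt1 had a log2 fold change of -0.02 (adjusted p = 0.79).

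Around Ddit4, 15 mTORC1 regulators were tested, of which 1 rose, 6 fell and 8 were not called (median -0.06). Over all tested genes, 29% rose and 29.9% fell. The mTORC1 subunit Rptor rose (0.21), while the arginine sensor Castor1 (-0.93) and the sestrins Sesn3 (-0.57) and Sesn1 (-0.48) fell. Castor1, Sesn3 and Sesn1 restrain mTORC1, as Ddit4 does, and their direction was the opposite of that of Ddit4.

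The paralogs of the set moved both ways. Of 22 listed, 16 were tested, of which 6 rose, 7 fell and 3 were not called (median 0.05). Over all tested genes, 29% rose and 29.9% fell. Without both libraries numbered 3, 6 in place of 7 fell. In the VEGF family, Vegfc (0.71) and Pgf (0.47) rose with Vegfa, while Vegfd (-1.06) and Vegfb (-0.32) fell. In the Ndrg family, Ndrg2 rose from 83.4 ± 8.42 to 167 ± 10.8 CPM (1.0) and Ndrg4 also rose (0.44), while Ndrg3 fell (-0.31). The demethylase Jmjd1c rose (0.42) with Kdm3a, and Kdm3b fell (-0.17).

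The paralogs of single genes gave further contrasts. Ddit4l fell (-0.42) while Ddit4 rose, Bnip2 fell (-0.16) while Bnip3 rose, Higd2a fell (-0.12) while Higd1a rose, and Adm2 rose while Adm fell. Of the carbonic anhydrases, Car2 (0.24), Car12 (0.14) and Car13 (-0.05) were not called. Bnipl, Car3, Car4, Car14, Higd1b and Higd1c did not pass the filter.

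Markers of fibroblasts dominated all libraries. The summed level of 10 fibroblast markers, led by Col1a1, was 13460 to 14180 CPM under the GFP label and 11856 to 12453 CPM under the OEIRF7 label, with 1 marker higher and 6 lower. Of 7 macrophage markers, led by Lyz2, 4 were higher and none lower, and their sum was 273 to 325 CPM against 343 to 378 CPM. Of 7 endothelial markers, led by Cdh5, 3 were higher (Kdr among them) and 1 lower, at 217 to 231 against 221 to 250 CPM. Mural markers, led by Cspg4, had 2 higher and 1 lower of 4 tested (65.7 to 72.3 against 77.3 to 97.3 CPM), and epicardial markers, led by Upk3b, 2 higher and 1 lower of 5 (72.4 to 88.6 against 58.3 to 65.8 CPM). Of 8 cardiomyocyte markers only Tnnt2 was tested, and it was lower, while Myh6 had at most 1 count in any library. No marker of these lists was at 0 in every library. The part of these cell types in the differences of the hypoxia targets was not tested.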

How the data were processed

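RNA-seq of 8 libraries was analysed, 4 labelled GFP and 4 labelled OEIRF7. The authors aligned trimmed reads to GRCm38 (HISAT2) and deposited raw counts per gene from HTSeq-count beside FPKM from Cufflinks; versions and strand setting are not given in the sources used here. The study's text and the labels differ on virus type, extraction and library kits. The log2 fold changes, p-values and group means that the authors deposited come from their own comparison and were not used. The test was edgeR 4.0.16 in R 4.3.3 (filterByExpr, TMM, glmQLFit and glmQLFTest, no covariates), with Benjamini-Hochberg adjustment over 13533 genes; common biological coefficient of variation 0.0562, TMM factors 0.989 to 1.01. Exact tests used log2 CPM with a prior count of 2. Intervals are 95%. Coordinates are from GENCODE M21, in which 22219 identifiers were found. The members and lists were chosen with earlier results of these data known. Named from each list were up to 3 called genes per direction with the largest change and no overlap between groups. All paralogs, all genes of the set, Irf7 and the highest gene of each cell type list were named too. Ramp1, Ramp2, Ramp3, Flt1, Myh6, Hk1, Postn, Col3a1, Col1a2, Lox and Tcf21 were named outside this rule, after their values were seen, as were Lrp2bp and the 2 FPKM ratios. Alternatives were DESeq2 1.42.0, limma 3.58.1 on log2(FPKM + 1) or log2(FPKM + 0.1) for genes above 0.1 FPKM, other scalings and filters, the replicate block and leaving out each library. The tests were also run on simulated data in which far fewer genes changed than were called here. That run does not measure their error rates in these data.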

Additional observations from a re-analysis of the deposited data

Results flagged for a closer look

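Of 20 groups (10 genes under 2 labels), 1 held a library far from the others. Replicate 3 labelled OEIRF7 was at 51.7 CPM for Higd1a, where the other libraries of that label were between 42.3 and 43.2 CPM, and its gap over the group's range was above Dixon's 95% limit for 4 libraries. Chance marks about 1 in 20 groups.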

How the results depend on the processing

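All 9 tested genes kept their direction and their side of the adjusted threshold under all alternatives (144 of 144 values, and again without both libraries numbered 3). Apart from the fits that left out libraries, the log2 fold change of Ankrd37 ran from 1.14 to 1.65, that of Higd1a from 0.62 to 0.77 and that of Adm from -0.60 to -0.56. With Car9 tested, the number of genes higher was 9 (DESeq2, and a minimum of 1 count in total). Adm passed the 0.66-fold threshold, giving 1 gene lower in place of 0, with that minimum. When 1 library was left out, 8 to 9 genes were higher and 1 lower, 4 to 6 were higher and 0 to 1 lower at the thresholds of the methods; the value of 1 came without GFP replicate 2 or 4 or OEIRF7 replicate 3 or 4. Over all genes, limma on log2(FPKM + 1) gave 766 higher and 636 lower at those thresholds in place of 1282 and 1294. Lower mitophagy genes numbered 2 with either limma fit and 3 without scaling, in place of 5, and 3 to 5 when libraries were left out, 3 without both libraries numbered 3, an alternative added after seeing the data. The cause was not tested. Correlations of deviations between libraries of the same replicate number were low, at 0.079, 0.095, 0.138 and 0.104. Each of the 8 libraries nevertheless correlated best with its own number. A pairing by number may therefore be present, and the main test did not use it. With the replicate block, 8 genes were higher and 1 lower, and over all genes 4057 and 4154 in place of 3924 and 4045; 19 in place of 17 glycolytic targets and 4 in place of 3 adrenomedullin partners were higher, and 6 in place of 5 mitophagy genes lower. Genes near 1 CPM, such as Ankrd37 and Car9, rest on few counts.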
